A study of Peromyscus polionotus with 11 samples.

Results

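Genes of the ventricular lining and the choroid plexus were followed in 11 brain micropunch arrays from the oldfield mouse, Peromyscus polionotus. The set names 9 genes: Ttr, Folr1, Rsph1, Otx2, Enpp2, Prlr, Foxj1, Vim and Ptgds. Members are the probe sets whose only gene symbol in the platform annotation is one of these names, and 12 probe sets of 7 genes were found among 22626 probe sets tested, which cover 12393 named genes. Enpp2 and Prlr were not analysed here. Ttr and Vim have 3 probe sets each, Ptgds has 2, and Folr1, Rsph1, Otx2 and Foxj1 have 1 each. The genes were chosen by their function and by measured values on these arrays: the day-length difference in the bed nucleus and the regional difference of several of them, Vim among them, were known when the set was drawn up. The differences between day lengths and between nuclei are therefore described without a test of their own, except where a test is named.

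Total RNA came from micropunches of the bed nucleus of the stria terminalis, with 2 short-day and 3 long-day samples, and of the medial preoptic area, with 3 short-day and 3 long-day samples. Per the design text the samples within each nucleus were independent, and the study asked what day length does to gene expression in these nuclei. The labels give no age, sex or treatment besides day length, and do not tie a sample of one nucleus to an animal that also gave the other. The short-day samples carry the numbers 4 and 5 in the bed nucleus and 4 to 6 in the preoptic area, and the long-day samples the numbers 1 to 3 in both.

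The brain ventricles are lined by ependymal cells, which carry motile cilia and move cerebrospinal fluid, and in places by tanycytes, elongated cells related to radial glia. Choroid plexus epithelium hangs into the ventricles and secretes the fluid, and the leptomeninges cover the brain surface. The bed nucleus lies beside the lateral ventricle and the medial preoptic area beside the third ventricle. Tanycytes of the hypothalamus are known from other rodents as a site where day length acts on thyroid hormone supply.

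Each value is the intensity of 1 probe set on a linear scale as the authors normalised it, and the median over all arrays was 19. The arrays carry house mouse probes, so levels of different probe sets were not compared with each other, only set above or below that median. Correlations between arrays of the same group ran from 0.97 to 0.99 over all probe sets (Pearson, log2 values). Of the 12 probe sets, those of Vim and Ptgds and the Ttr probe set 1451580_a_at lay above the median on all 11 arrays. Folr1 did so on 9 arrays, Rsph1 on 8 and Otx2 on 5, the Ttr probe sets 1455913_x_at and 1454608_x_at on 2 each, and Foxj1 on 0. One intensity unit is a step of 0.07 on the log2 scale at 19, so the differences of the dim probe sets rest on a few units. In bulk samples fewer cells of a type and less RNA per cell cannot be told apart.

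**Figure D1:**
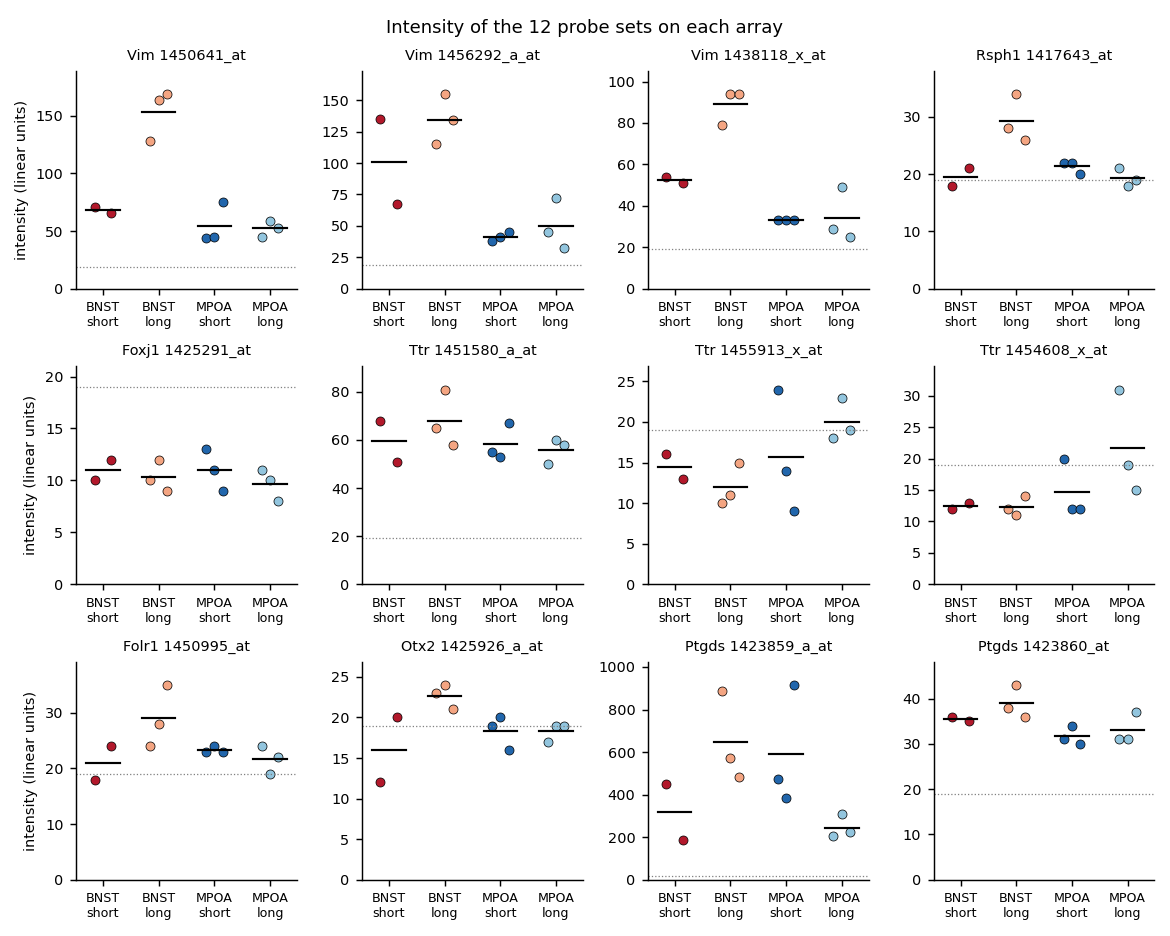
Intensity (linear units, axes from 0) of each of the 12 probe sets on every array, in the order short-day and long-day bed nucleus (BNST), short-day and long-day medial preoptic area (MPOA). Points are arrays, black bars group means, and the dotted line is the array median of 19. The long-day bed nucleus points lie above all other points for 2 Vim probe sets, Rsph1 and Otx2.

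Vim encodes vimentin, the intermediate filament protein of ependymal cells, tanycytes, astrocytes and vessel walls, and it was the member with the widest regional difference. Its probe set 1450641_at read 71 and 66 on the short-day bed nucleus arrays, against 128, 164 and 169 on the long-day ones. In the medial preoptic area it read 44, 45 and 75 in short days and 45, 59 and 53 in long days. The long-day bed nucleus arrays thus stood above the other 8, and the short- and long-day preoptic arrays overlapped.

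The probe set 1438118_x_at of Vim gave the same order, with 54 and 51 on the short-day bed nucleus arrays and 79, 94 and 94 on the long-day ones. Its preoptic values were 33, 33 and 33 in short days and 29, 49 and 25 in long days, so that both groups of the bed nucleus lay above both preoptic groups. The name ending _x_at marks a probe set that can match further transcripts. The third, 1456292_a_at, read 135 and 67 in the short-day bed nucleus and 115, 155 and 134 in the long-day one. Its array 4 therefore lay within the long-day range while array 5 lay below it. The preoptic values of this probe set were 38, 41 and 45 in short days and 45, 72 and 32 in long days.

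On the log2 scale, the short minus long day difference of Vim in the bed nucleus was -1.16 ± 0.20 (SE) for 1450641_at, -0.76 ± 0.20 for 1438118_x_at and -0.49 ± 0.27 for 1456292_a_at. Without array 5 the last value was 0.01, and without array 4 it was -0.996. In the medial preoptic area the corresponding differences were 0.03 ± 0.18, 0.01 ± 0.18 and -0.19 ± 0.24, all smaller than their standard errors.

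Rsph1 encodes a radial spoke protein of motile cilia. It read 18 and 21 on the short-day bed nucleus arrays and 28, 34 and 26 on the long-day ones. Short-day preoptic arrays gave 22, 22 and 20, and long-day preoptic arrays 21, 18 and 19. As for Vim, the long-day bed nucleus arrays stood above the other 8, here by a margin of 4 units. The short minus long day difference was -0.58 ± 0.15 in the bed nucleus and 0.14 ± 0.13 in the medial preoptic area (log2, SE).

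Foxj1, the transcription factor that switches on the motile cilia programme, did not share this pattern at the level its probe set could show. It read 10 and 12 in the short-day and 10, 12 and 9 in the long-day bed nucleus, and 13, 11 and 9 in the short-day and 11, 10 and 8 in the long-day preoptic area. All groups overlapped, and all values lay under the array median. The differences were 0.09 ± 0.18 in the bed nucleus and 0.18 ± 0.16 in the preoptic area (log2, short minus long day).

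Among the choroid plexus genes, Folr1, a folate receptor that carries folate into cerebrospinal fluid, read 18 and 24 in the short-day bed nucleus and 24, 28 and 35 in the long-day one. In the preoptic area it read 23, 24 and 23 in short days and 24, 19 and 22 in long days. The bed nucleus groups touched at 24. Otx2, a homeodomain transcription factor of choroid plexus and forebrain patterning, read 12 and 20 in the short-day bed nucleus and 23, 24 and 21 in the long-day one. Its preoptic values were 19, 20 and 16 in short days and 17, 19 and 19 in long days.

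The long-day bed nucleus arrays were again the highest group for both genes, above the other 8 arrays for Otx2 and overlapping with them for Folr1. The short minus long day difference in the bed nucleus was -0.46 ± 0.17 for Folr1 and -0.55 ± 0.18 for Otx2 (log2, SE). For Otx2 the value rested largely on array 4: it was -0.18 without that array and -0.92 without array 5. For Folr1 it was -0.26 without array 4 and -0.67 without array 5. The preoptic differences were 0.11 ± 0.15 for Folr1 and -0.00 ± 0.16 for Otx2.

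Ttr encodes transthyretin, the thyroid hormone carrier that choroid plexus secretes in bulk. Its bright probe set 1451580_a_at varied little, with 68 and 51 in the short-day bed nucleus, 65, 81 and 58 in the long-day bed nucleus, 55, 53 and 67 in the short-day preoptic area and 50, 60 and 58 in the long-day preoptic area. All groups overlapped, and the highest array stood 1.62 times above the lowest. Both dim probe sets ran the other way. In the bed nucleus 1454608_x_at read 12 and 13 in short days and 12, 11 and 14 in long days, against 20, 12 and 12 in the short-day and 31, 19 and 15 in the long-day preoptic area.

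In the same order 1455913_x_at read 16 and 13, then 10, 11 and 15, then 24, 14 and 9, then 18, 23 and 19. For both dim probe sets the long-day preoptic arrays were the highest group on average and lay above the long-day bed nucleus arrays without overlap. Over the 11 arrays the bright Ttr probe set correlated with them at a Pearson's r of -0.48 and -0.59, whereas the dim ones correlated with each other at 0.68. The 3 probe sets of Ttr therefore gave no common direction, and each dim one exceeded the array median on 2 of 11 arrays.

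Ptgds encodes the lipocalin-type prostaglandin D synthase, which leptomeninges, choroid plexus and oligodendrocytes make and release into cerebrospinal fluid. The probe set 1423859_a_at read 451 and 187 in the short-day and 889, 574 and 483 in the long-day bed nucleus, so that the short-day arrays were lower. In the medial preoptic area it read 475, 383 and 915 in short days and 204, 308 and 222 in long days, so that there the short-day arrays were higher. Neither pair of groups overlapped.

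The log2 difference of this Ptgds probe set, short minus long day, was -1.11 ± 0.33 in the bed nucleus and 1.19 ± 0.30 in the medial preoptic area (SE). Single arrays carried part of both values. Without array 4 or 5 of the short-day bed nucleus the first was -1.75 or -0.48, and without array 6 of the short-day preoptic area the second was 0.83. The further Ptgds probe set, 1423860_at, read 36 and 35 in the short-day and 38, 43 and 36 in the long-day bed nucleus. In the preoptic area it read 31, 34 and 30 in short days and 31, 31 and 37 in long days. Its differences were -0.13 ± 0.14 in the bed nucleus and -0.06 ± 0.13 in the preoptic area, and it correlated with the first probe set at an r of 0.14 over 11 arrays.

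**Figure D2:**
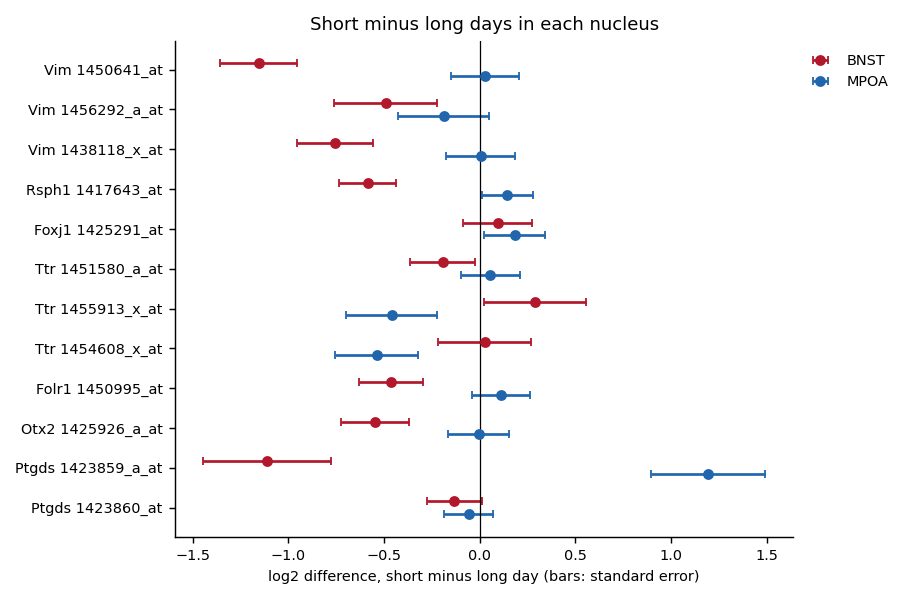
Log2 difference, short minus long day, of each probe set in the bed nucleus (BNST) and the medial preoptic area (MPOA), with bars for the standard error of the limma model. In the bed nucleus 9 of 12 points lie below 0, and Ptgds 1423859_a_at lies on opposite sides of 0 in the 2 nuclei.

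Set over all members, the short-day bed nucleus was below the long-day one in 9 of 12 probe sets, where 52.8% of all probe sets tested were below 0. The median log2 difference was -0.48 over the members and -0.01 over all probe sets. Groups did not overlap in 5 probe sets, those of Rsph1 and Otx2, 2 of Vim and 1 of Ptgds, all lower in short days, which happened in 13.5% of all probe sets. In the limma model over all probe sets with Benjamini-Hochberg adjustment, 1 member probe set passed the threshold of 0.05, Vim 1450641_at. The share passing among all probe sets was 0.0442%. That call was lost in 11 of 17 alternative settings. Among them was the omission of any 1 of 8 arrays: either short-day bed nucleus array, long-day bed nucleus array 2 or 3, short-day preoptic array 4, or any long-day preoptic array. Because this contrast helped to pick the genes, these counts are a description of the choice.

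Markers of other cell types were set beside this result, and their part in it was not tested. General neuronal markers were below 0 in 10 of 12 genes (median -0.20), and their mean log2 level ran from 7.13 to 7.23 on the short-day and from 7.21 to 7.65 on the long-day bed nucleus arrays. Pericyte and smooth muscle markers, cells that also hold vimentin, were below 0 in 8 of 10 genes (median -0.09). Their summed intensity was 291 to 328 in short days and 334 to 378 in long days. Their mean log2 levels, 4.66 to 4.84 in short days and 4.81 to 4.95 in long days, overlapped. Red cell transcripts summed to 329 to 371 and 458 to 519 in the same order (4 genes). Astrocyte markers were below 0 in 8 of 12 genes and endothelial markers in 6 of 13, and both summed levels overlapped between the groups. No marker of these lists passed in the short minus long day contrast of the bed nucleus (limma). In that contrast no measured gene of any list was at 0.

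In the medial preoptic area 7 of 12 member probe sets were above 0 in short days, where 49.9% of all probe sets were. The medians were 0.02 for the members and 0 for all probe sets. No member passed in limma, as no probe set did (0% of those tested). An unadjusted p under 0.05 was found for 2 members, Ptgds 1423859_a_at and Ttr 1454608_x_at, and for 3.5% of all probe sets. Short-day arrays lay above long-day arrays without overlap in 1 member, the same Ptgds probe set, against 2.64% of all probe sets.

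The difference between the day-length effects, bed nucleus minus preoptic area, was below 0 in 10 of 12 member probe sets and in 52.7% of all probe sets. The exceptions were the dim Ttr probe sets. It was -2.30 ± 0.45 for Ptgds 1423859_a_at, -1.18 ± 0.27 for Vim 1450641_at, -0.76 ± 0.27 for Vim 1438118_x_at and -0.73 ± 0.20 for Rsph1, and 0.75 ± 0.36 for Ttr 1455913_x_at. None passed over all probe sets in limma (0% called), and 7 of 12 members had an unadjusted p under 0.05, against 8.34% of all probe sets. The bed nucleus difference that helped to choose the genes is one side of this contrast, so these counts too describe the choice. Movement of all arrays in opposite directions in the nuclei was seen for 1 member, Ptgds 1423859_a_at, and for 0.636% of all probe sets.

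Between the nuclei, averaged over both day lengths, Vim was higher in the bed nucleus by 0.96 ± 0.13, 1.36 ± 0.18 and 1.05 ± 0.13 on the log2 scale for 1450641_at, 1456292_a_at and 1438118_x_at. All 3 passed over all probe sets in limma, where 1.03% of probe sets did. They did so under all settings in which they were tested, including each array left out in turn. The regional difference of Vim was among the values known when it was chosen. None of the other 9 probe sets passed (adjusted p from 0.207 to 0.945, limma). Rsph1 was at 0.23 ± 0.10, Folr1 at 0.12 ± 0.11, Otx2 at 0.03 ± 0.12, Foxj1 at 0.05 ± 0.12, and Ptgds at 0.23 ± 0.22 and 0.20 ± 0.10. The bright Ttr probe set was at 0.15 ± 0.11, and the dim ones were on the other side of 0, at -0.38 ± 0.18 for 1455913_x_at and -0.47 ± 0.16 for 1454608_x_at.

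**Figure D3:**
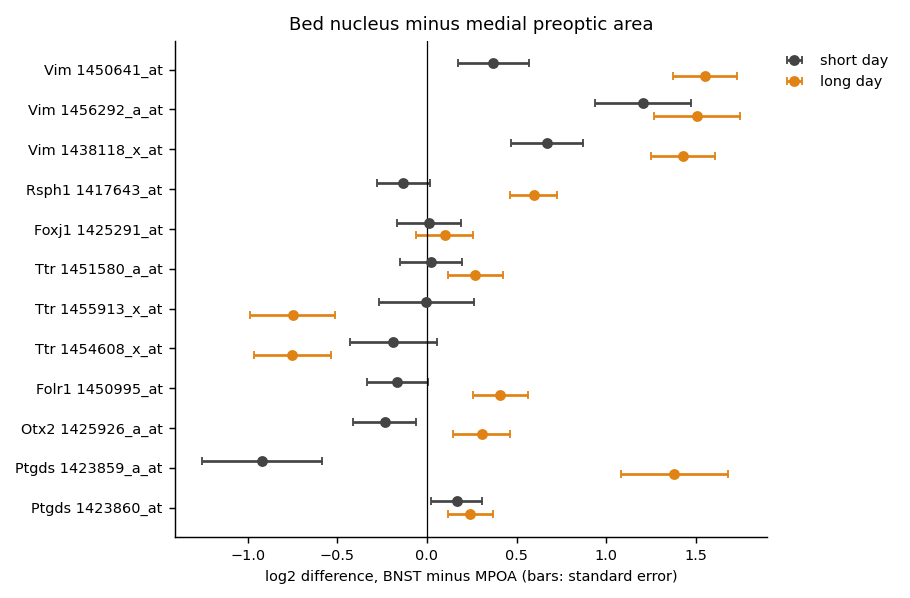
Log2 difference, bed nucleus (BNST) minus medial preoptic area (MPOA), of each probe set within short days and within long days, with bars for the standard error of the limma model. Vim is above 0 in both, and Rsph1, Folr1, Otx2 and Ptgds 1423859_a_at are above 0 within long days alone.

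Within long days, the bed nucleus exceeded the preoptic area 2.93-fold for Vim 1450641_at (log2 difference 1.55 ± 0.18), 2.85-fold for 1456292_a_at and 2.70-fold for 1438118_x_at. Rsph1 was 1.51 times higher (0.60 ± 0.13) and Ptgds 1423859_a_at 2.60 times (1.38 ± 0.30). Arrays did not overlap for 6 probe sets that were higher in the bed nucleus, against 6.69% of all probe sets, and for the 2 dim Ttr probe sets that were lower, against 5.5%. The 3 Vim probe sets passed in limma, against 0.128% of all probe sets. The call of 1456292_a_at was lost in 5 of 17 settings, including without long-day preoptic array 1 or 3 or long-day bed nucleus array 2, and that of 1438118_x_at in 1 of 17, with the long-day arrays alone. These differences share the long-day bed nucleus arrays with the day-length contrast that helped to choose the genes.

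Within short days Vim was at 0.37 ± 0.20, 1.21 ± 0.27 and 0.67 ± 0.20 in the same order of probe sets. Rsph1 was at -0.13 ± 0.15, Folr1 at -0.17 ± 0.17, Otx2 at -0.24 ± 0.18 and Ptgds 1423859_a_at at -0.92 ± 0.33. No member passed in limma, where 0.354% of all probe sets did, and 3 members had an unadjusted p under 0.05, against 10.3% of all probe sets. Short-day bed nucleus arrays lay above the short-day preoptic arrays without overlap for 3 probe sets, 2 of Vim and Ptgds 1423860_at, against 8.86% of all probe sets. Of all members, 4 had the 3 long-day bed nucleus arrays above the other 8, against 1.9% of all probe sets: 2 of Vim, Rsph1 and Otx2.

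The order of the group means was the same for the 2 Vim probe sets whose long-day bed nucleus arrays stood alone and for the bright Ttr probe set: long-day bed nucleus, short-day bed nucleus, short-day preoptic area, long-day preoptic area. For Vim the step between the bed nucleus groups exceeded the spread of arrays, and the step between the preoptic groups did not. For Ttr no step did. Rsph1 ran from the long-day bed nucleus over the short-day preoptic area and the short-day bed nucleus to the long-day preoptic area, and arrays of the last 3 groups overlapped. Otx2 and Folr1 had the short-day bed nucleus last, Ptgds 1423859_a_at had the long-day preoptic area last, and the range of group means for Foxj1 was within the spread of arrays.

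Probe sets of one gene agreed best for Vim, at a Pearson's r of 0.84 to 0.94 over the 11 arrays, which share 4 group means. After the group means were taken out, these values were 0.36 to 0.79. Rsph1 correlated with Otx2 at 0.74, with Folr1 at 0.73 and with Vim 1450641_at at 0.75, and within groups at 0.54, 0.22 and -0.40. These 3 values were lower within groups than over all arrays, and that with Vim changed sign. With Foxj1 the r of Rsph1 was 0.31 over all arrays and 0.75 within groups.

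The 7512 genes with a mean above the array median were searched for patterns most like each member's brightest probe set over the 11 arrays (log2, Pearson's r). Closest to Vim were Prkcd (0.95), Chd7 (0.92) and Id3 (0.92), and closest to Rsph1 were Sgsh (0.94), Stoml2 (0.92) and Gnb2 (0.92). Ttr was followed most closely by Ctsz (0.93), Folr1 by Zic5 (0.88), Otx2 by Rap2b (0.91), Foxj1 by Pla2g2e (0.94) and Ptgds by Tpst2 (0.93). With 11 arrays these values are a description, and no member was among the 3 nearest genes of another. Foxj1 could not be, since its mean lay below the array median and it was not among the genes searched.

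Further genes of the same structures were taken from 4 lists with the members left out. Motile cilia genes were measured in 18 of 58 listed. In long days 17 of these 18 were higher in the bed nucleus than in the preoptic area, with a median log2 difference of 0.23, against 0.01 over all genes. The gene that was lower was Tppp3. Arrays did not overlap for 8 of the 18, all higher in the bed nucleus, against 6.69% of all probe sets. The 18 are the brightest probe sets of their genes, and the share is over all probe sets. Some of the 8 rested on few units: Ift88 read 25, 25 and 26 against 24, 24 and 17, and Meig1 11, 10 and 11 against 9, 8 and 9. Meig1 and Mns1 lay under the array median on every array. The count of higher genes was 16 or 17 of 18 without any 1 array, and 11 of 12 with dim genes left out, settings that were applied to this list and to the named list genes after seeing the data. In the same contrast oligodendrocyte markers were higher in 7 of 7 genes (median 0.26) and striatal neuron markers in 9 of 10 (median 0.38). Endothelial markers were higher in 10 of 13 genes and general neuronal markers in 4 of 12. A long-day difference in this direction was therefore not particular to the cilia genes.

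Of the motile cilia genes 1 passed over all probe sets in long days. Ropn1l, which encodes a radial spoke-associated protein, read 20 and 20 in the short-day bed nucleus, 32, 29 and 26 in the long-day bed nucleus, 26, 22 and 21 in the short-day preoptic area and 13, 16 and 17 in the long-day preoptic area. The long-day nuclei differed by 0.92 ± 0.14 (log2, adjusted p = 0.00693, limma). Its call was lost in 3 of 18 settings, without array 1 of the preoptic area in long days (adjusted p = 0.0537, limma), without array 1 of the bed nucleus in long days (0.0526), and with the long-day arrays alone (0.116).

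Ift57, an intraflagellar transport protein, Zmynd10, which takes part in dynein arm assembly, and Kif9, a kinesin of cilia, were singled out after their values were seen, because their long-day bed nucleus arrays stood above the other 8. Of the 18 genes these 3 did so, against 1.9% of all probe sets. Ift57 read 22 and 21 in the short-day and 31, 34 and 30 in the long-day bed nucleus, and its long-day regional difference was 0.58. That of Zmynd10 was 0.36 and that of Kif9 was 0.28, and none of the 3 passed (adjusted p of 0.106, 0.376 and 0.475, limma). Between short and long days in the bed nucleus 14 of the 18 genes were below 0 (median -0.14) and none passed in limma, with 5 at an unadjusted p under 0.05, all lower, against 12.7% of all probe sets in either direction. Both contrasts share the long-day bed nucleus arrays. The mean log2 level of the list was 4.35 to 4.40 on the short-day and 4.52 to 4.57 on the long-day bed nucleus arrays, and 4.26 to 4.31 and 4.22 to 4.33 on the short- and long-day preoptic arrays.

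**Figure D4:**
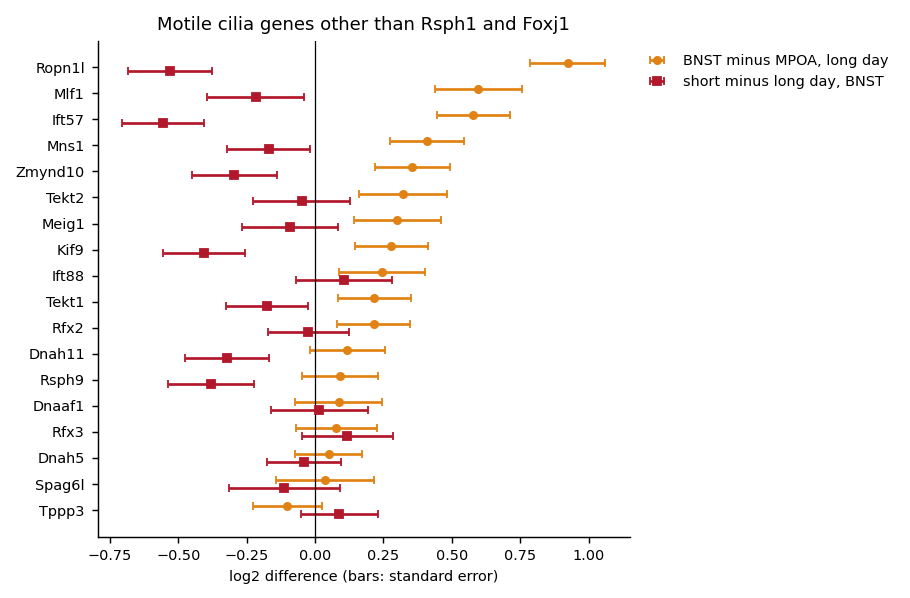
Log2 difference of 18 motile cilia genes other than Rsph1 and Foxj1, bed nucleus (BNST) minus medial preoptic area (MPOA) in long days (circles) and short minus long day in the bed nucleus (squares), with bars for the standard error. Circles lie above 0 for 17 genes, and squares below 0 for 14. Both contrasts use the long-day bed nucleus arrays.

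Choroid plexus genes other than the members did not show such a split. Of 37 measured genes, 21 were above 0 and 16 below 0 between short and long days in the bed nucleus (median 0.03), and none passed in limma, with 3 higher and 2 lower at an unadjusted p under 0.05. In long days 21 of the 37 genes were higher and 15 lower in the bed nucleus than in the preoptic area (median 0.02). Arrays did not overlap for 0 genes that were higher, against 6.69% of all probe sets, and for 1 that was lower, against 5.5%. Kl, Kcne2, Aqp1 and Sostdc1, known as choroid plexus genes in the house mouse, read 15 to 25, 10 to 16, 10 to 21 and 23 to 32 over all arrays. The mean of 18 of the 37 genes lay above the array median. The summed intensity of the list was 1109 to 1149 on the short-day and 996 to 1043 on the long-day bed nucleus arrays. On the short- and long-day preoptic arrays it was 981 to 1074 and 969 to 1028. The short-day bed nucleus sums thus stood above all others, whereas Folr1 and Otx2 were lower there. The mean log2 levels in the bed nucleus, 4.49 to 4.54 in short days and 4.45 to 4.49 in long days, overlapped.

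Leptomeningeal genes were above 0 in 23 of 34 between short and long days in the bed nucleus (median 0.12), opposite in sign to Ptgds 1423859_a_at. None passed in limma. At an unadjusted p under 0.05, 3 were higher and 1 lower, against 12.7% of all probe sets in either direction. In the preoptic area they were above 0 in 16 and below 0 in 18. Their mean log2 level was 4.18 to 4.20 on the short-day and 4.07 to 4.14 on the long-day bed nucleus arrays, with 4.09 to 4.13 on the short-day and 4.10 to 4.15 on the long-day preoptic arrays. The collagens Col1a1, Col1a2 and Col3a1, which fibroblasts of the meninges make, differed by -0.11, -0.22 and 0.25 between short and long days in the bed nucleus.

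Of 20 measured tanycyte and radial glia-like genes besides Vim, 13 were below 0 between short and long days in the bed nucleus, where 52.8% of all probe sets were. At an unadjusted p under 0.05, 2 were higher and 3 lower, against 12.7% of all probe sets in either direction. In limma 1 passed, lower in short days, against 0.0442% of all probe sets. That gene was Lhx2, a LIM homeodomain factor that in the house mouse is required in tanycytes and patterns the forebrain. It read 60 and 65 in the short-day and 148, 143 and 163 in the long-day bed nucleus, against 38, 49 and 35 in the short-day and 41, 51 and 38 in the long-day preoptic area. Lhx2 fell by 1.27 ± 0.16 in the short-day bed nucleus (log2, adjusted p = 0.00415, limma) and its long-day regional difference was 1.81 ± 0.15 (adjusted p = 1.89e-06, limma). The day-length call was lost in 3 of 17 settings, without array 4 (adjusted p = 0.0966, limma) or 5 (0.0533) of the short-day bed nucleus and with the bed nucleus arrays alone (0.334). As for Vim 1450641_at, the long-day bed nucleus arrays stood above all others.

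Classical tanycyte genes did not pass with it. Rax, a homeodomain factor of the hypothalamic ventricle wall, read 13 and 15 in the short-day and 20, 15 and 13 in the long-day bed nucleus. Dio2, the enzyme that activates thyroid hormone, read 34 and 42 in the short-day and 54, 38 and 37 in the long-day bed nucleus, and Nes, the filament protein nestin, 21 and 24 against 31, 23 and 23. Their short minus long day differences were -0.17, -0.16 and -0.18, and groups overlapped for all 3. Of the 20 genes 7 went the other way, among them Frzb (0.54), Sox3 (0.35), Prom1 (0.17) and Gpr50 (0.11), and none of these passed in limma. Lhx2 and Hes1 were the 2 of 20 genes whose long-day bed nucleus arrays stood above the other 8, against 1.9% of all probe sets. Hes1 read 48 and 46 in the short-day and 61, 57 and 58 in the long-day bed nucleus. Its short minus long day difference there was -0.32 and did not pass in limma. Without Lhx2, a setting chosen after seeing the data, the mean log2 level of the other 19 genes was 4.90 to 4.91 on the short-day and 4.93 to 5.01 on the long-day bed nucleus arrays, and 4.87 to 4.91 on the short-day and 4.90 to 4.94 on the long-day preoptic arrays. The long-day bed nucleus arrays then overlapped with the long-day preoptic arrays, and the median long-day regional difference was 0.05 with Lhx2 and 0.03 without it, against 0.01 over all genes.

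**Figure D5:**
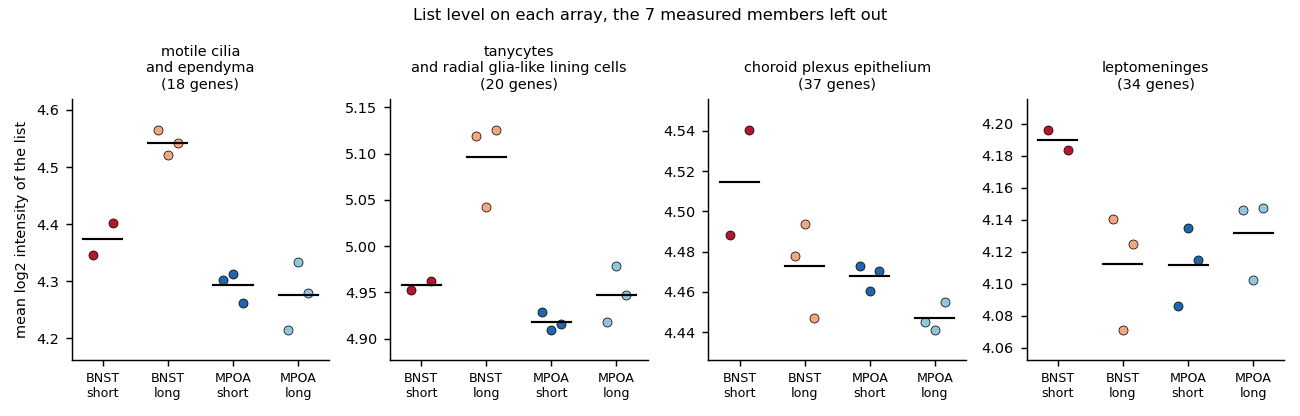
Mean log2 intensity of 4 gene lists on every array, with the 7 measured members left out. Points are arrays, black bars group means, and each panel has its own axis that does not start at 0. The long-day bed nucleus arrays stand above the other arrays for motile cilia genes (4.52 to 4.57) and, with Lhx2 included, for tanycyte and radial glia-like genes (5.04 to 5.13), and not for choroid plexus or leptomeningeal genes.

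Cd24a, a surface glycoprotein of ependymal cells and immature neurons, crosses this set. Its probe set 1437502_x_at read 201 and 184 in the short-day and 813, 474 and 857 in the long-day bed nucleus, and 137, 128 and 210 in the short-day and 470, 509 and 259 in the long-day preoptic area. Short-day arrays of this probe set lay below the long-day ones in both nuclei without overlap. The short minus long day differences in the bed nucleus and the preoptic area were -1.85 and -1.36 for it, -0.97 and -0.80 for 1448182_a_at, and -0.08 and 0.02 for 1416034_at (log2), and of these only the first, -1.85, passed in limma. That call was lost in 5 of 17 settings. Among them were the bed nucleus arrays alone and the omission of either short-day bed nucleus array.

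Averaged over day lengths, 7 of 7 oligodendrocyte markers lay above 0 in the difference of bed nucleus minus preoptic area (median 0.34, none passing in limma, 5 at an unadjusted p under 0.05, against 11.9% of all probe sets), with a summed intensity of 517 to 966 on the short-day and 536 to 782 on the long-day bed nucleus arrays, against 406 to 572 and 429 to 560 on the preoptic arrays in the same order. For striatal neuron markers this was so in 9 of 10 genes, and 5 passed in limma, among them Foxp1 and Rasd2 (adjusted p = 0.00137 and 0.00126), where 1.03% of all probe sets did. Of the endothelial markers 11 of 13 lay above 0 and of the astrocyte markers 7 of 12, with medians of 0.08 and 0.02 and none passing in limma. General neuronal markers lay below 0 in 9 of 12 genes (median -0.14), with none passing in limma and 5 lower at an unadjusted p under 0.05. The part of these cells in the Vim difference was not tested.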

How the data were processed

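Total RNA of 11 micropunch samples was measured on 1 array per sample. The authors deposited intensity values on a linear scale in whole numbers, made with RMA version 3.4 per the submitters' processing notes; any filter is not given in the sources used here, so none is assumed. Of 22690 probe sets 64 are controls and were left out. The platform annotation gives 1 symbol for 20380 probe sets, several for 691 and none for 1555, and only the first were named.

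The log2 of the intensities was fitted with limma 3.58.1 in R 4.3.3 (4 group means, 7 residual degrees of freedom, moderated two-sided tests, Benjamini-Hochberg adjustment over 22626 probe sets, threshold 0.05). Errors are standard errors of that model. The fit was tested on simulated arrays. Each listed gene was represented by its probe set of highest mean. Named list genes are those that passed, at most 8 per list and contrast, unless said otherwise. The alternatives were quantile normalisation, an offset of 16 before the log, dim probe sets left out, a trended and robust prior, 1 probe set per gene, only the arrays concerned, a replicate block and each array left out in turn. The members, lists and tests were chosen with earlier results of these data known. No detection call was used, and the number of arrays limits the precision. P-values measure only the spread between these samples, which per the design text were independent within each nucleus. The labels tie no sample to an animal, so how much of that spread is technical is not known.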

Additional observations from a re-analysis of the deposited data

Results flagged for a closer look

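The Ptgds probe set 1423859_a_at was picked out because its arrays moved in opposite directions in the 2 nuclei: both short-day bed nucleus arrays lay below all long-day ones, and all short-day preoptic arrays lay above all long-day ones. The difference of the day-length effects was -2.30 on the log2 scale. It did not pass over all probe sets in limma, it ran from -2.94 to -1.67 when single arrays were left out, and the further Ptgds probe set gave -0.08.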

How the results depend on the processing

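Over 18 alternative settings, 1166 of 1200 recomputed member differences moved by less than the residual SD of their probe set, and 34 moved further. Many of them could not move. An array left out elsewhere than in the contrast leaves its difference unchanged. So do the trended prior, dim probe sets left out, 1 probe set per gene and only the arrays concerned. The share is therefore no measure of stability. Counts are of all probe sets passing in limma unless members are named, and medians are log2 differences over the member probe sets. Without any 1 array, the short minus long day count in the bed nucleus ran from 0 to 38, with 0 to 1 member and a median of -0.56 to -0.29. In the preoptic area the count ran from 0 to 1, with a member median of -0.07 to 0.10. For the difference of the day-length effects the count was 0 to 5 and the median -0.53 to -0.35. The count between nuclei averaged over day lengths was 70 to 224. In long days it was 8 to 52, with 2 to 4 members. In short days it was 6 to 106, with 0 to 2 members and a median of -0.15 to 0.10. Quantile normalisation gave 0 members for day length in the bed nucleus and 1 between nuclei in short days. An offset of 16 gave a count of 6, 0 members and a median of -0.28 in the bed nucleus, medians of -0.28 for the difference of effects and 0.23 in long days, and a short-day count of 140. With dim probe sets left out the last 2 medians were -0.58 for the difference of effects and 0.60 in long days, and 11 motile cilia genes stayed above 0 of the 12 tested. The trended prior gave a long-day count of 45. With 1 probe set per gene the medians were 0.11 in the preoptic area, -0.58 for the difference of effects and -0.13 in short days, with 1 member passing between nuclei, on average and in long days alike. With only the arrays concerned the count was 0 with 0 members in the bed nucleus, 2 with 1 member in long days, and 0 in short days. Sample numbers are shared between nuclei, but same-numbered samples did not deviate together (r of -0.03 to 0.07). With a replicate block the long-day count was 66, and in short days 1 member passed with a median of -0.15. The cause of these shifts was not tested. Dim probe sets near the array median limit what Foxj1, Otx2 and the 2 dim Ttr probe sets can show.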
